A study of Mus musculus with 6 samples.

Results

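The comparison described here is between 4T1 cells that carried the short hairpin shRNA1 and mock cells. 4T1 is a metastatic line from a mouse mammary tumour. The 2 libraries labelled shRNA1 were set against the 2 libraries labelled WT, which is 4 of the 6 RNA sequencing libraries of the series. WT cells were mock transfected, and shRNA1 cells carried a hairpin against the long noncoding RNA AU021063. The other 2 libraries, from cells with a second hairpin against the same RNA (shRNA3), served to estimate the spread and for a direct contrast at the end. The labels name no cells with a hairpin that lacks a target, so an effect of carrying any hairpin and an effect of losing AU021063 cannot be told apart within shRNA1 against WT. Nor do they tell if each library had its own culture, and p-values therefore measure only a spread between libraries that may be technical. Expression values were taken to be FPKM, which scales the fragments of a gene by its length and by the size of the library. Of 24346 gene symbols, 11079 averaged 1 FPKM or more across all 6 libraries and were compared.

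The series title sets AU021063 between the cytokine IL-6 with the RNA-binding protein Arid5a on one side and Trib3 with MEK and ERK signalling on the other. Trib3 is a pseudokinase: it binds other proteins, among them the ubiquitin ligase COP1 and the kinase AKT, and it is itself induced by the transcription factor ATF4 when amino acids run short or unfolded proteins collect in the endoplasmic reticulum. MEK kinases activate the ERK kinases, and active ERK in turn induces a set of early and feedback genes, such as Egr1, the Dusp phosphatases and the Sprouty inhibitors, whose RNA levels are often read as a record of the pathway. In breast carcinoma cells these routes meet those of hypoxia, inflammation and matrix breakdown, which are followed below by gene list.

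The 4 libraries were of similar depth. Some genes read as signs of RNA handling differed between the groups and are given further below. All values of a library summed to between 560862 and 592420 FPKM, a sum that does not measure depth. Between 10998 and 11106 symbols reached 1 FPKM. The absolute depth is unknown, but steps between low values put the other 3 libraries at 86.8% to 98.9% of the depth of WT replicate 1. Genes that averaged 10 FPKM or more differed between the replicates by a median of 4.43% in WT and 4.39% in shRNA1. On the first principal component of all 6 libraries, with 46.2% of the variance, shRNA1 lay between WT and shRNA3. The shRNA1 libraries stood at 4.02 and 1.47, against -22.68 and -25.01 in WT and 20.84 and 21.36 with shRNA3. On the second component, with 26.1% of the variance, both shRNA1 libraries stood apart from the other 4. Markers were set beside the label 4T1, and the epithelial ones were mixed. Of 10 genes listed as marks of 4T1 carcinoma cells, 7 passed the filter. The simple epithelial keratin Krt8 was abundant in WT, at 421 and 435 FPKM. The epithelial adhesion gene Cdh1 was low there, at 1.28 and 1.22 FPKM, and the epithelial splicing factor gene Esrp1 was listed at 0 in all 6 libraries. The mesenchymal gene Vim stood at 1523 and 1588 FPKM. Of markers of other cells, Kdr and Erg (endothelial cells) and Ptprc, Itgam, Tyrobp, Cd3e and Nkg7 (leukocytes) were listed at 0 in all 6 libraries. The 10 fibroblast markers summed to 81.8 and 80.5 FPKM in WT and to 96.8 and 98.3 FPKM with shRNA1, with Col3a1 and Thy1 at 0. Differences in the number of cells of a kind and in RNA per cell cannot be told apart in such bulk samples.

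AU021063 itself was lower in both shRNA1 libraries than in both WT libraries, at a very low level. Of all genes tested, 36.8% also had both shRNA1 libraries below both of WT. GENCODE lists AU021063 as a lincRNA (ENSMUSG00000115944.1, chr15:101221247-101222155, plus strand, GRCm38). Its level was 1.82 and 1.67 FPKM in WT, against 1.04 and 0.572 FPKM in the shRNA1 libraries. The shRNA1 mean was 46.3% of the WT mean, and leaving out single libraries moved it from 32.7% to 59.8%. Fragments were not counted but inferred, as the smallest whole numbers that fit these values. They were 11 and 10 in WT and 6 and 3 with shRNA1. The rate corrected for depth was 46.9% of WT, with a 95% exact binomial interval from 18.9% to 107% that covers counting error only (exact p = 0.0663, two-sided). An exact permutation test over the 4 libraries gave p = 0.333, below which a test of 2 against 2 cannot go. The groups did not overlap, as in 69.0% of all genes tested. With these fragment numbers, a lowering by this hairpin was not detectable beyond counting error at this depth. With a mean of 0.983 FPKM over the 6 libraries AU021063 did not pass the filter and was not part of the limma test. AU021063 lies inside the antisense gene A330009N23Rik (chr15:101221195-101225186, minus strand), whose values of 0.653 and 0.727 FPKM in WT and 0.716 and 0.663 FPKM with shRNA1 overlapped. The sources used here do not say if strand was used in the quantification, so fragments of both genes may have been mixed.

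Of the annotated genes within 500 kb of AU021063 on chromosome 15, 30 were among the symbols and 8 passed the filter. Of these 8, 3 rose with shRNA1 and 0 fell. Of all genes tested, 17.6% were called higher and 18.4% lower, 36.0% together. A gene is called here when limma gives a Benjamini-Hochberg adjusted p under 0.05. Scn8a, a sodium channel gene 175.3 kb away, stood at 1.09 and 0.962 FPKM in WT and 2.05 and 1.93 FPKM with shRNA1, and both shRNA1 libraries lay above both of WT (log2 change 0.56 ± 0.12 SE, limma adjusted p = 0.00791). All log2 changes given are differences of log2(FPKM + 1), shRNA1 minus WT, a scale that understates the change of low genes. Krt7, a keratin of simple epithelia 188.9 kb away, stood at 9.65 and 9.85 FPKM in WT and 14.7 and 13.3 FPKM with shRNA1 (log2 change 0.48 ± 0.08, limma adjusted p = 0.00263). Acvr1b, a type I activin receptor gene 7.6 kb away, stood at 9.56 and 9.89 FPKM in WT and 11.6 and 11.3 FPKM with shRNA1. Its call (log2 change 0.22, limma adjusted p = 0.0239) ended without any 1 of the 4 libraries and when library totals were made equal (adjusted p from 0.0164 to 0.112 over all settings). Grasp, the nearest gene that passed the filter, lies 2.0 kb away and was not called, at 9.997 and 10.04 FPKM in WT and 11.2 and 10.97 FPKM with shRNA1 (limma adjusted p = 0.256). Krt80, with a log2 change of 0.20 (limma adjusted p = 0.107), was called only without shRNA1 replicate 2 (adjusted p = 0.0428). Fignl2, Nr4a1 and Atg101, the other 3, were not called, with log2 changes of 0.10, 0.05 and 0.12.

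The genes of the route in the series title did not move as 1 block. Trib3 fell steeply and Egr1, a transcription factor gene that ERK induces, rose steeply, while Map2k1 and Mapk3, kinases of the route, changed by less than 1.5-fold. Of 17 members that passed the filter, 7 rose and 3 fell with shRNA1, with a median log2 change of 0.11, beside -0.01 for all genes tested. The median was 0.064 without WT replicate 1, 0.052 with equal totals and 0.034 over genes that averaged at least 5 FPKM. This list follows the title of the study and is no independent evidence of a direction.

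Trib3 (ENSMUSG00000032715.9, chromosome 2, 152337422 to 152344032, minus strand) stood at 128 and 136 FPKM in WT and 24.5 and 26.2 FPKM with shRNA1. Both shRNA1 libraries lay far below both WT libraries, and the mean was 5.20-fold lower (log2 change -2.33 ± 0.05, limma adjusted p = 4.04e-07). Egr1 stood at 1.77 and 1.66 FPKM in WT and 16.3 and 15.5 FPKM with shRNA1, 9.27-fold higher (log2 change 2.64 ± 0.12, limma adjusted p = 3.88e-06). The 2 libraries of each group were close together for both genes, and no value of one group came near the other. Of the MEK and ERK kinases, Map2k1 (MEK1) rose from 51.99 and 56.6 to 71.2 and 71.7 FPKM, 1.32-fold. Mapk3 (ERK1) stood at 174 and 181 FPKM in WT and 208 and 197 FPKM with shRNA1, and its call (log2 change 0.19, limma adjusted p = 0.0130) ended without WT replicate 1, without shRNA1 replicate 1 and with quantile normalization (range 0.00913 to 0.0835). Map2k2 (MEK2), at 40.2 and 41.8 FPKM in WT and 40.9 and 34.4 FPKM with shRNA1, overlapped between the groups (limma adjusted p = 0.231) and was called lower only without shRNA1 replicate 1 (adjusted p = 0.0263). Braf, a kinase that activates MEK, stood at 3.38 and 3.15 FPKM in WT and 3.87 and 3.90 FPKM with shRNA1 and was not called (log2 change 0.20, limma adjusted p = 0.0962), except when the prior variance had no trend (adjusted p = 0.0393).

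On the cytokine side, Il6 did not reach the filter. Its WT libraries held 0.419 and 0.212 FPKM, its shRNA1 libraries 1.69 and 1.29 FPKM. Inferred in the same way, that is 6 and 3 fragments against 23 and 16. The rate was 474% of WT (95% exact binomial interval 226% to 1110%, exact p = 3.23e-06, two-sided). This test compares these libraries and covers counting error only. Stat3, the transcription factor that IL-6 activates, rose from 52.5 and 52.6 to 67.2 and 67.5 FPKM. Jak1 and Jak2, genes of kinases that associate with the receptor, both rose 1.23-fold. The shared receptor subunit gene Il6st fell from 97.7 and 96.5 to 81.8 and 83.5 FPKM. Zc3h12a, an RNase that degrades cytokine mRNA, stood at 23.9 and 24.95 FPKM in WT and 30.1 and 27.8 FPKM with shRNA1. Its call (limma adjusted p = 0.0326) ended without either WT library, without shRNA1 replicate 1 and under 3 other settings (adjusted p up to 0.167). Il6ra, Arid5a, Akt1 and Rfwd2 (COP1) were not called, with log2 changes from -0.08 to 0.11.

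Across all 11079 genes, 1954 rose and 2035 fell with shRNA1. Most of these changes were small: the median size of a called log2 change was 0.32. At least 2-fold (a log2 change of 1 or more in size) 103 genes were higher, 0.93% of those tested, and 35 lower, 0.316%. Without any 1 of the 4 libraries the counts were 1356 to 1491 higher and 1248 to 1313 lower. When library totals were made equal, 1459 of 4182 called genes, or 34.9%, were higher, compared with 49.0% without this step. With a pseudocount of 0.1 in place of 1, 172 genes were at least 2-fold higher. The 2 groups did not overlap in 69.0% of all genes tested and in all 3989 called genes. For a called gene, groups without overlap are therefore no added evidence. Abundant genes were called more often: 22.8% of genes with a mean from 1 to 5 FPKM, 35.0% from 5 to 20, 42.6% from 20 to 100 and 47.6% at 100 or above. From 5 to 20 FPKM falls led, with 927 against 608 rises, and at 100 FPKM or above rises led, with 260 against 124 falls. Of 64 long intergenic noncoding RNA genes that passed the filter 12 rose and 6 fell. Of the 103 and 35 genes, 3 and 2 were miRNA or snoRNA genes, which are left out of the rankings.

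**Figure D1:**
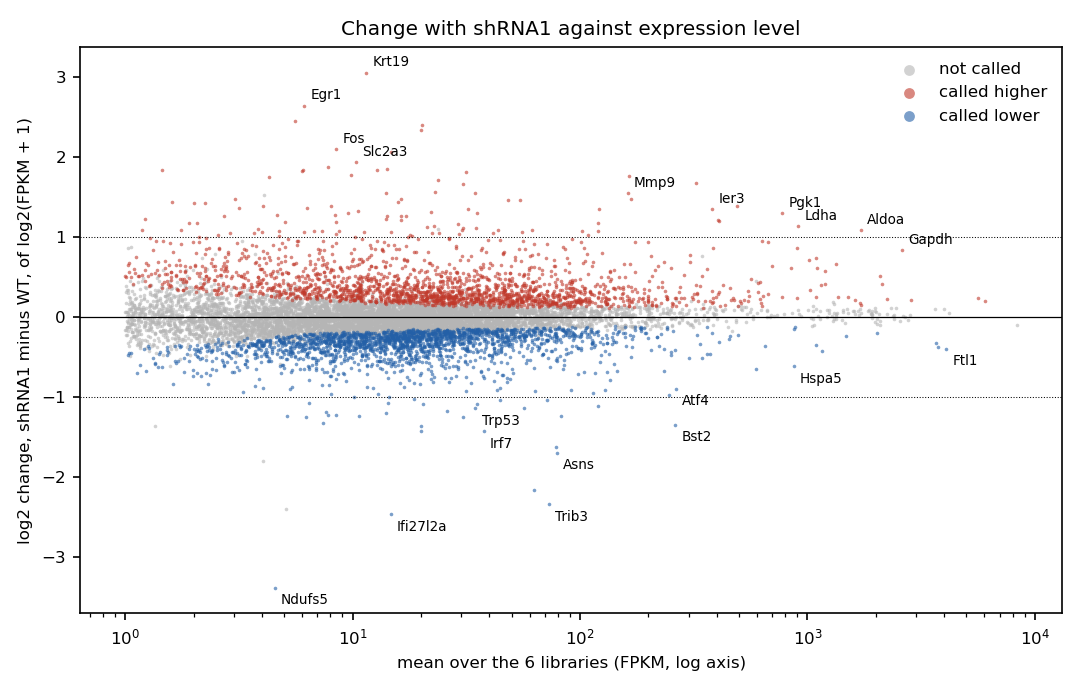
Each point is 1 gene that passed the filter, without miRNA and snoRNA genes. The x axis is the mean of the 6 libraries in FPKM on a log axis and the y axis the log2 change of log2(FPKM + 1), shRNA1 minus WT. Red points were called higher and blue ones lower, and dotted lines mark a change of 1 in either direction. Krt19 stands highest at 3.05 and Ndufs5 lowest at -3.38, and abundant glycolysis genes such as Gapdh and Ldha lie well above 0.

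Among single genes, the largest rise was that of Krt19, a keratin of simple epithelia. It stood at 1.79 and 1.33 FPKM in WT and 19.8 and 20.4 FPKM with shRNA1, 12.9-fold higher (log2 change 3.05 ± 0.09, limma adjusted p = 8.22e-07). After Egr1 came Steap4, a metalloreductase gene induced by inflammatory signals, at 0.896 and 0.843 FPKM in WT and 9.22 and 9.13 FPKM with shRNA1. For Krt19 and Steap4 each shRNA1 library was more than 10 times the mean of WT. Nos2, the inducible nitric oxide synthase, stood at 4.39 and 4.18 FPKM in WT and 26.2 and 24.96 FPKM with shRNA1. Fos, an early gene and part of the transcription factor AP-1, stood at 3.25 and 2.89 FPKM in WT and 15.9 and 16.9 FPKM with shRNA1. The fitted log2 changes of Steap4, Nos2 and Fos were 2.44, 2.33 and 2.10, with limma adjusted p from 4.04e-07 to 3.13e-06. The ranking went on with Mettl7b, the glucose transporter gene Slc2a3, the protease gene Prss22, the pattern recognition gene Ptx3, Vwa1, the stefin gene Stfa3, Espn (an actin bundler), Mgarp and Selenbp1, with log2 changes from 2.06 down to 1.81. Stfa3 stood at 0 and 0.625 FPKM in WT and 3.90 and 3.20 FPKM with shRNA1.

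The largest fall by rank was that of Ndufs5, a subunit gene of respiratory complex I, and it is uncertain. It stood at 4.997 and 17.1 FPKM in WT and at 0.002 FPKM in both shRNA1 libraries, and 1 of the shRNA3 libraries held 0.001 FPKM. The 2 WT libraries themselves lay far apart, and RefSeq lists a copy named Ndufs5-ps elsewhere, between which the authors' counting could split reads. Its call (limma adjusted p = 0.0119) ended without WT replicate 2, without either shRNA1 library and without the filter (range 0.00253 to 0.0704). Ifi27l2a, an interferon-induced gene, followed at 30.6 and 25.2 FPKM in WT and 4.89 and 3.66 FPKM with shRNA1, 6.52-fold lower (log2 change -2.46 ± 0.14, limma adjusted p = 1.29e-05). Trib3 came next, then Atf5, a transcription factor gene of the ATF4 response, at 105 and 119 FPKM in WT and 24.7 and 23.7 FPKM with shRNA1. For each of these 3 genes both shRNA1 libraries lay far below both WT libraries. Asns, the asparagine synthetase, stood at 121 and 122 FPKM in WT and 35.3 and 38.4 FPKM with shRNA1. Ddit3, which encodes the stress transcription factor CHOP, stood at 102 and 105 FPKM in WT and 34.7 and 31.4 FPKM with shRNA1. Again no shRNA1 value came near those of WT. The other falls by rank were those of Irf7, the glycine transporter gene Slc6a9, Camk2n2, Bst2, Dmrta2, Mthfd2, H2-T24, Cth and Shmt2, with log2 changes from -1.42 to -1.24. Irf7 and Bst2 belong to the interferon response, and Slc6a9, Mthfd2, Cth and Shmt2 to amino acid and folate metabolism.

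**Figure D2:**
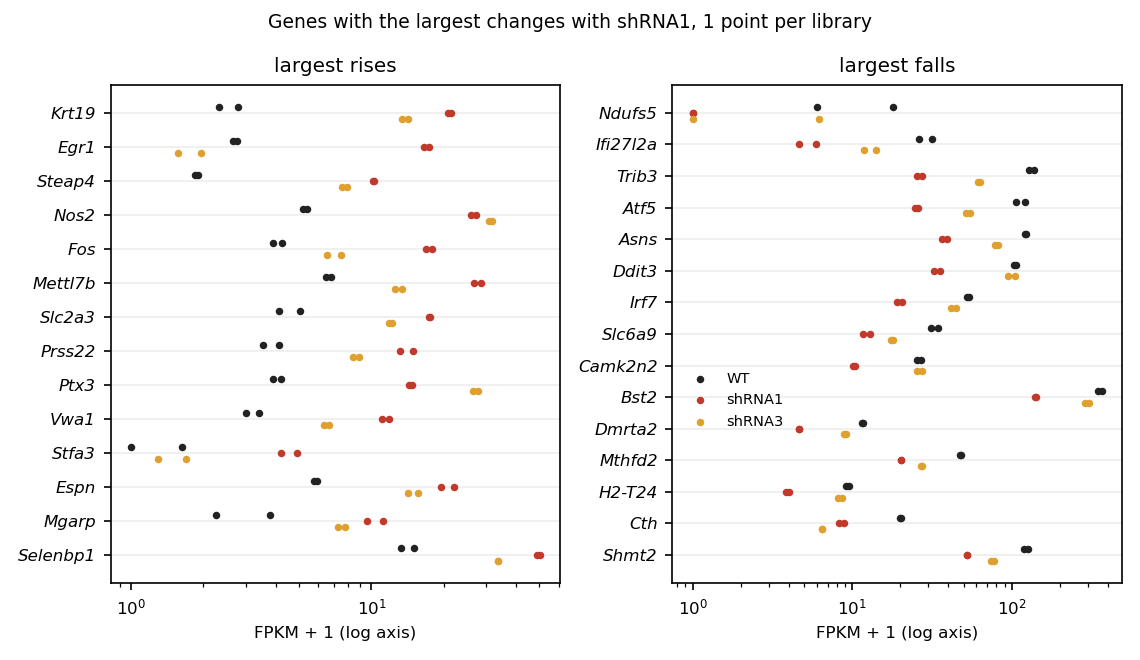
Genes named among the 15 largest rises (left) and falls (right) with shRNA1 against WT, in the order of their log2 change. Each point is 1 library at its FPKM + 1 on a log axis, black for WT, red for shRNA1 and orange for shRNA3, with 2 libraries a group. In every row both red points lie on one side of both black points, which the rule that chose these genes required. For Egr1 the orange points lie below the black ones.

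By absolute amount the picture was led by abundant genes. The largest gains included 4 enzymes of glycolysis: Gapdh went from 1575 and 1712 to 2962 and 2908 FPKM. Aldoa went from 883 and 939 to 1980.3 and 1876 FPKM, and Ldha, which turns pyruvate into lactate, from 554 and 554 to 1220.0 and 1211 FPKM. Pgk1 rose from 397 and 391 to 959 and 982 FPKM. The intermediate filament gene Vim rose from 1523 and 1588 to 2295 and 2137 FPKM, and S100a4, a calcium-binding protein tied to metastasis, from 967 and 875 to 1491 and 1536 FPKM. Lgals1 and Lcn2 ranked here as well (limma adjusted p = 0.00751 and 0.00929), but the call of Lgals1 ended without WT replicate 1 or shRNA1 replicate 1, and that of Lcn2 without any 1 of the 4 libraries. Both also ended with no filter and with quantile normalization. The highest adjusted p was 0.183 for Lcn2. For Lgals1 quantile normalization gave a log2 change of 0 and an adjusted p of 1. The largest losses were those of the ferritin genes, Ftl1 from 4157 and 4588 to 3454 and 3203 FPKM and Fth1 from 4279 and 4329.6 to 3442 and 3461 FPKM. Tpt1 fell from 4322 and 4287 to 3282 and 3348 FPKM. Hspa5, the main chaperone of the endoplasmic reticulum, fell from 999 and 964 to 634 and 648 FPKM. Tmem176b, Igfbp4 and Ifitm3 fell as well. Ferritin and Gapdh genes have many processed copies in the mouse genome, so their values are uncertain where the authors' counting could split reads.

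Of the 103 genes that were at least 2-fold higher, 18 were among the 45 tested members of the glycolysis and hypoxia lists and 7 among the 21 tested immediate early genes. Of the 35 that were at least 2-fold lower, 12 were among the 72 tested members of the lists tied to amino acids. Those are the lists of ATF4 factors, of serine, one-carbon and other enzymes, of amino acid transporters and of tRNA synthetases. The 38 tested interferon-stimulated genes held 4 of the 35. The lists together held 749 genes tested, with 48 of the 103 and 18 of the 35. The share of members called in each list, read against the 17.6% and 18.4% of all genes, is plotted by list.

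**Figure D3:**
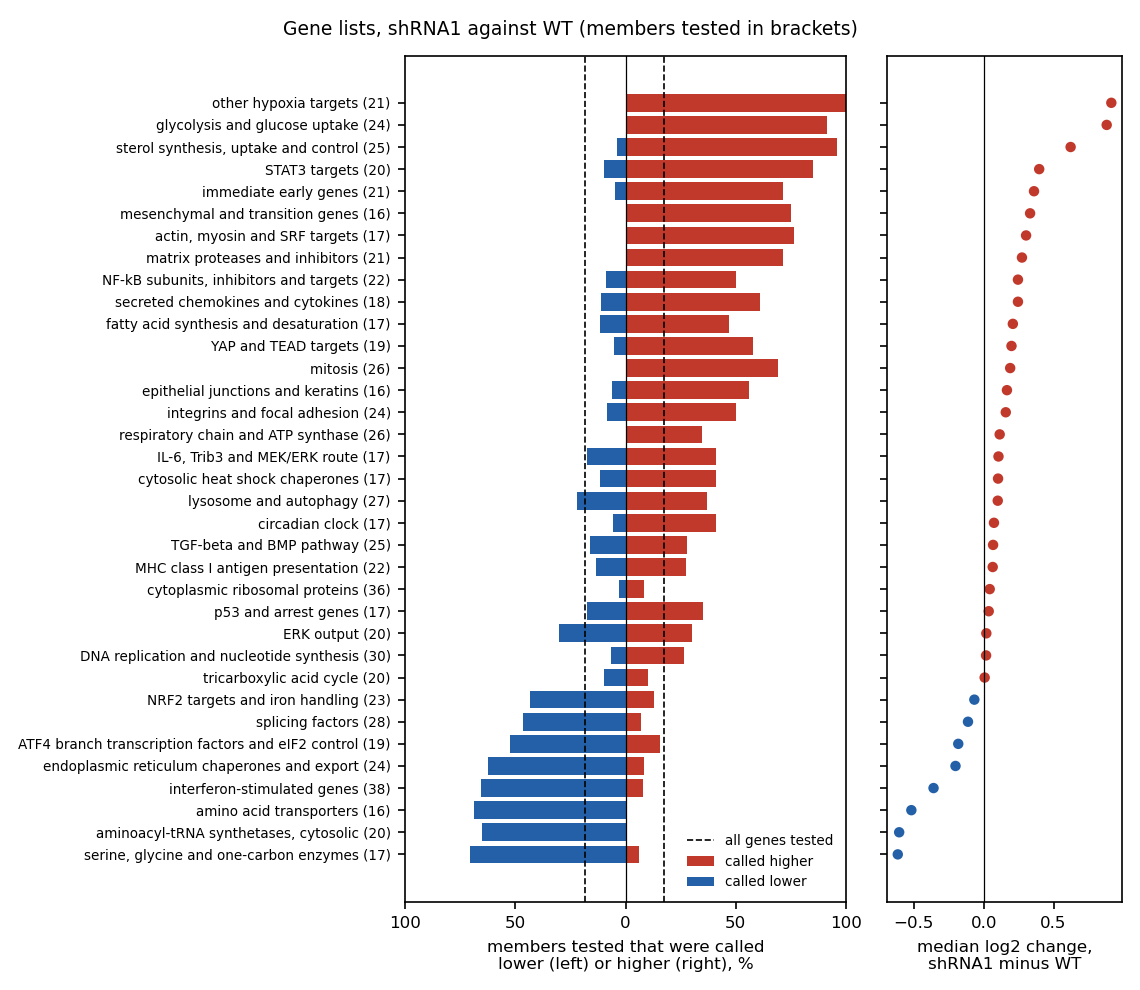
For each list with at least 15 members tested (number in brackets), bars give the percentage of members called lower (blue, left) and higher (red, right) with shRNA1 against WT, and points give the median log2 change. Dashed lines mark the percentage of all genes tested, 17.6% higher and 18.4% lower. The hypoxia and glycolysis lists stand at the top with medians of 0.91 and 0.88. At the bottom, with -0.62, is the list of serine, glycine and one-carbon enzymes, which also holds Asns, Glul, Pck2 and others.

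Genes of the ATF4 response to amino acid shortage were lower with shRNA1. ATF4 is translated when the kinases of eIF2 are active, and it induces enzymes that make serine, glycine, asparagine and one-carbon folates, transporters that bring amino acids in, and the synthetases that load them onto tRNA. Of 19 tested factors and controls of this branch 10 fell and 3 rose (median log2 change -0.18). Atf4 itself fell from 385 and 387 to 209 and 206 FPKM, 1.86-fold lower (log2 change -0.89, limma adjusted p = 4.73e-06). Chac1, which breaks down glutathione, fell from 35.3 and 43.004 to 16.2 and 17.2 FPKM. Nupr1, a stress-induced chromatin protein, fell from 332 and 338 to 176 and 163 FPKM. The 3 that rose were Ndrg1, Ddit4 and Eif2ak4. Ndrg1 and Ddit4, both also known as hypoxia-induced genes, rose 2.30-fold and 1.92-fold. Eif2ak4, the eIF2 kinase that senses uncharged tRNA, rose from 9.38 and 9.45 to 11.9 and 13.3 FPKM.

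The enzymes, transporters and synthetases fell in most cases. The list of serine, glycine and one-carbon enzymes also holds genes of other routes, among them Asns, Aldh18a1, Pycr1, Gpt2, Got1, Glul, Cth and Pck2. Of its 17 tested members 12 fell and 1 rose (median -0.62). Of 16 amino acid transporters 11 fell and 0 rose (median -0.52). Of 20 cytosolic tRNA synthetases 13 fell and 0 rose (median -0.61). With median-of-ratios scaling, or over genes that averaged at least 5 FPKM, 1 synthetase gene rose. All 19 genes of the enzyme list, the 2 below the filter included, summed to 908 and 936 FPKM in WT. With shRNA1 they summed to 535 and 527 FPKM. Mthfd2, a mitochondrial folate enzyme, stood at 47.1 and 46.6 FPKM in WT and 19.2 and 19.2 FPKM with shRNA1. Shmt2, which makes glycine from serine in mitochondria, stood at 119 and 126 FPKM in WT and 51.2 and 51.3 FPKM with shRNA1. Cth, the last enzyme of cysteine synthesis, stood at 18.99 and 19.3 FPKM in WT and 7.24 and 7.84 FPKM with shRNA1. Each of these was more than 2-fold lower, without overlap. The exception was Mthfd1l, which stood at 16.3 and 16.8 FPKM in WT and 19.7 and 19.4 FPKM with shRNA1 (log2 change 0.23, limma adjusted p = 0.0149). Its call ended without WT replicate 1 or either shRNA1 library and with equal totals (up to 0.0771). Among transporters, Slc6a9 fell from 30.3 and 33.3 to 11.8 and 10.7. Slc7a5, the light chain of the large neutral amino acid transporter, fell from 134 and 138 to 72.3 and 71.3 FPKM, and its heavy chain Slc3a2 from 176 and 182 to 95.5 and 94.5 FPKM. Slc38a1, a glutamine transporter gene, fell 1.90-fold. Of the synthetases, the alanine enzyme gene Aars fell from 96.9 and 100.2 to 47.4 and 47.9 FPKM. Tars, Gars and Iars, for threonine, glycine and isoleucine, fell 1.91-fold, 1.65-fold and 1.69-fold.

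The letters TGATGNAA, the C/EBP-ATF response element through which ATF4 and its partners bind many of these genes, were searched on both strands in the 250 bases before the start of each gene (RefSeq, GRCm38.p6). Of the 27025 genes with such a promoter 3.91% held them, and of the 8515 of these that were tested 2.27%. Of tested members with a promoter, called or not, each of the 4 lists above had a share between 16.7% and 26.7%. The 34 members that fell and had a promoter were chosen by list and by their fall, so their share is a description. Of these 34, 10 held the letters, or 29.4%. A match is a description of the letters and not a bound site. The windows of 80 bases printed here, 5′ to 3′ on the strand of the gene, are those of the 4 genes with the largest fall among the 10 and show where the letters lie. Capitals mark the match, in either orientation.
Asns (chr6:7693210-7693289, minus strand): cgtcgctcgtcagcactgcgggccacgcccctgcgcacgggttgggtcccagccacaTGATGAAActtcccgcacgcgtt
Chac1 (chr2:119351009-119351088, plus strand): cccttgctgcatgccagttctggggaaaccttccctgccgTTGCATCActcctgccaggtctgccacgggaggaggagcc
Pck2 (chr14:55540123-55540202, plus strand): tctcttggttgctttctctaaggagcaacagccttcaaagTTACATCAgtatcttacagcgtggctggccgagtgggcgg
Aars (chr8:111033690-111033769, plus strand): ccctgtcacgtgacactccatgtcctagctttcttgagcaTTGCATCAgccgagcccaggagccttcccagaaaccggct
In Asns the match begins 23 bases before the start of the gene, in Pck2 103, in Aars 112 and in Chac1 193 bases before it. Pck2, the mitochondrial form of phosphoenolpyruvate carboxykinase, fell from 61.01 and 65.7 to 30.7 and 30.1 FPKM.

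Chaperones and export factors of the endoplasmic reticulum fell more mildly. Of 24 tested, 15 fell and 2 rose, with a median log2 change of -0.20. Hspa5, given above, fell 1.53-fold. Hyou1, its cochaperone, fell from 44.2 and 44.6 to 24.9 and 24.3 FPKM, and Herpud1, a degradation factor, from 56.1 and 58.2 to 32.3 and 31.7 FPKM. The 2 that rose were Ero1l and P4hb. Ero1l, the oxidase that drives disulphide formation and a known hypoxia target, rose from 134 and 125 to 405 and 424 FPKM, and P4hb, a disulphide isomerase gene, 1.24-fold. The list of cytosolic heat shock chaperones also holds the mitochondrial Hspd1 and Hspe1 and the transcription factor gene Hsf1. Of its 17 tested members 7 rose and 2 fell (median 0.10). Hspb1 rose most, from 7.79 and 9.14 to 22.004 and 19.8 FPKM. Without WT replicate 2 and without shRNA1 replicate 2 the rises numbered 4 and 3. The falls numbered 0 or 1 without any 1 of the 4 libraries and 5 with equal totals, and the median was 0.047 with equal totals and 0.030 with quantile normalization.

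Glycolysis genes rose nearly throughout. Glycolysis splits glucose to pyruvate, and under low oxygen the transcription factor HIF-1 raises its enzymes and the transporters that feed it. Of 24 tested genes 22 rose and 0 fell, with a median log2 change of 0.88, and the same numbers were found under every alternative setting that was run. The 25 genes of the list, the 1 below the filter included, summed to 5970.3 and 6326 FPKM in WT and to 11915 and 11609.7 FPKM with shRNA1. Slc2a3, the glucose transporter GLUT3, stood at 3.13 and 4.05 FPKM in WT and 16.5 and 16.4 FPKM with shRNA1, 4.58-fold higher. Eno2, an enolase gene, stood at 22.7 and 24.2 FPKM in WT and 67.4 and 64.9 FPKM with shRNA1. Aldoc, an aldolase gene, stood at 21.1 and 21.4 FPKM in WT and 60.7 and 59.2 FPKM with shRNA1. Both libraries with shRNA1 were high and both of WT low. Pgk1, given above, was 2.46-fold higher (log2 change 1.30 ± 0.04, limma adjusted p = 7.30e-07). The 2 that were not called were Hk2 and Pfkfb4, with log2 changes of 0.16 and 0.17.

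Hypoxia targets outside glycolysis rose in 21 of 21 cases, also under each alternative setting (median log2 change 0.91). Besides Ero1l, Higd1a, a protein of the mitochondrial inner membrane, rose from 18.8 and 18.4 to 56.5 and 56.4 FPKM. Ankrd37 rose from 6.63 and 7.25 to 21.8 and 22.7 FPKM. Bnip3, which marks mitochondria for removal, rose 2.80-fold, and Car9, a carbonic anhydrase of the cell surface, 2.996-fold. Vegfa, the growth factor of blood vessels, rose from 75.2 and 74.7 to 122 and 123 FPKM. The smallest changes were those of Hif1a, the regulated subunit of HIF-1, which rose 1.31-fold, and of Tfrc, the transferrin receptor, which rose 1.30-fold.

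The letters ACGTG, the core of the hypoxia response element, occurred on either strand in a promoter of 18.5% of all 27025 genes and of 25.8% of genes tested. Of 37 raised members of the glycolysis and hypoxia lists that had a promoter, 21 held them, or 56.8%. This set, too, was chosen by list and by its rise. Of tested members with a promoter, called or not, the share was 47.8% for glycolysis and 68.8% for other hypoxia targets. In CACGTG the letters and their complement overlap. The windows printed are those of the 4 genes with the largest rise among the 21, with matches again in capitals.
Pgk1 (chrX:106186929-106187008, plus strand): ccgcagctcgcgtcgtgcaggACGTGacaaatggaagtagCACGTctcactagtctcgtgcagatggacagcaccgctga
Bnip3 (chr7:138909574-138909653, minus strand): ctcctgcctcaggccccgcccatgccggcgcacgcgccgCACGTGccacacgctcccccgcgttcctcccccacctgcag
Car9 (chr4:43506946-43507025, plus strand): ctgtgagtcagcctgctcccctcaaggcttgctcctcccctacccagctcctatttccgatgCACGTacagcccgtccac
Ankrd37 (chr8:45999851-45999930, minus strand): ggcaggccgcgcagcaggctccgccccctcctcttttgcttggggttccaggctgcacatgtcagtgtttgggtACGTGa
Pgk1 and Bnip3 hold 2 matches each in the window, those of Bnip3 overlapping, and Car9 and Ankrd37 hold 1 each, 18 and 6 bases before the start of the gene.

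Sterol genes rose as well. Cholesterol synthesis runs from acetyl-CoA over mevalonate to lanosterol and cholesterol, and SREBP-2 raises its enzymes together when sterols are short. Of 25 tested genes 24 rose and 1 fell, with a median log2 change of 0.62. Hmgcs1, which starts the mevalonate steps, stood at 30.3 and 27.7 FPKM in WT and 63.02 and 62.2 FPKM with shRNA1. It was about doubled without overlap between the groups. Downstream, Idi1, an isomerase of the isoprenoid steps, rose 2.29-fold, and Fdps, which makes farnesyl diphosphate, 2.28-fold. Ebp, a late isomerase, stood at 17.4 and 16.6 FPKM in WT and 14.1 and 14.02 FPKM with shRNA1. It was called lower (limma adjusted p = 0.0102), but not without WT replicate 1 or shRNA1 replicate 2 (up to 0.0639). Of 17 fatty acid genes 8 rose and 2 fell (median 0.21), with 1 fall without any 1 of the 6 libraries. Scd1, a desaturase, rose from 47.8 and 48.8 to 63.2 and 64.8 FPKM, and Mid1ip1, which activates acetyl-CoA carboxylase, fell from 48.5 and 53.4 to 41.6 and 35.2 FPKM. TCACNCCAC, a form of the sterol regulatory element, was searched in the same way and occurred in a promoter of 1.22% of all genes and of 1.19% of genes tested. Of 17 sterol genes that rose and had a promoter 1 held it (5.88%), Hmgcs1, whose window is printed for that reason. The match begins 137 bases before the start of the gene.
Hmgcs1 (chr13:119690174-119690253, plus strand): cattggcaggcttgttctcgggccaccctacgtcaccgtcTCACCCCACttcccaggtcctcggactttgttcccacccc

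**Figure D4:**
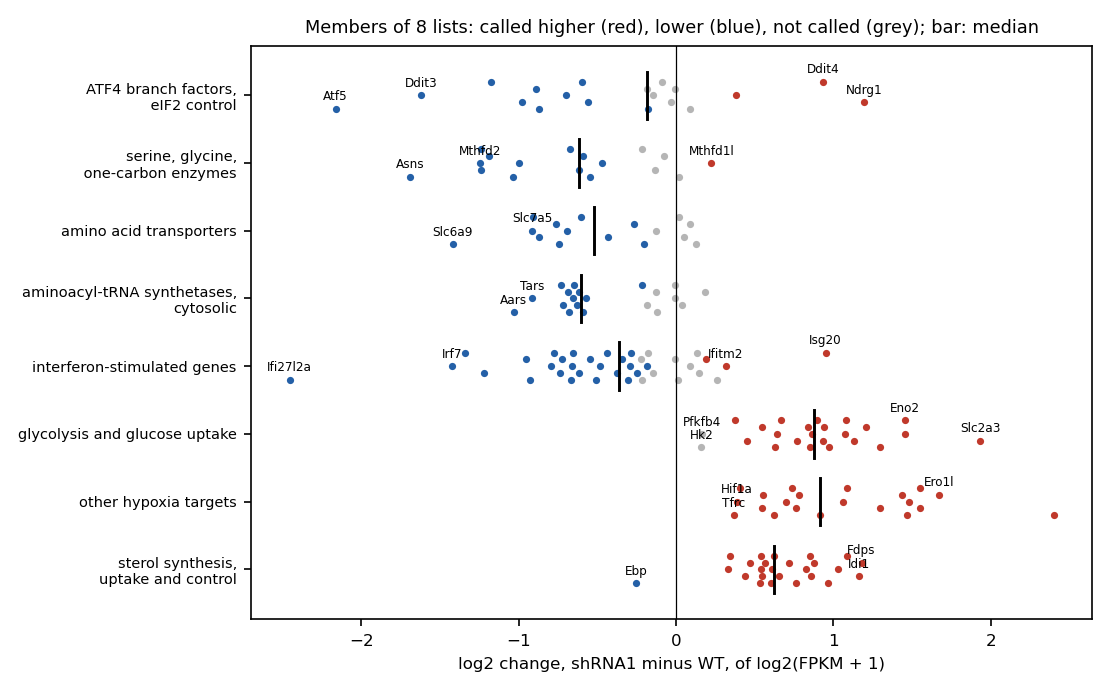
Each point is 1 tested member of a list at its log2 change, shRNA1 minus WT, red where called higher, blue where called lower and grey where not called; the black bar is the median and genes at the outer ends are named. A list of interferon-stimulated genes is included, with a median of -0.36. The 4 lists tied to amino acids lie mostly left of 0 with medians from -0.62 to -0.18, and those of glycolysis, hypoxia and sterols right of 0 with medians of 0.88, 0.91 and 0.62.

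In mitochondria the changes were small. Of 26 respiratory chain and ATP synthase genes 9 rose and 0 fell (median 0.11), and between 4 and 5 rose without WT replicate 1, without shRNA1 replicate 1, with quantile normalization and with equal totals. With equal totals 3 were called lower, and 1 with quantile normalization and without WT replicate 2. The median was 0.057 with equal totals, 0.058 with quantile normalization and 0.072 without shRNA1 replicate 2. Cox6c rose most, from 373 and 374 to 485 and 497 FPKM. Of 20 genes of the tricarboxylic acid cycle 2 rose and 2 fell. None was called without WT replicate 2, and with equal totals 1 rose and 4 fell. Without any other 1 of the 4 libraries between 0 and 2 rose and 1 fell. The median of 0.0062 was -0.049 with equal totals and -0.015 without shRNA1 replicate 2, and reached 0.048 without shRNA1 replicate 1.

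Genes that ERK signalling induces split in 2. Of 20 tested ERK output genes 6 rose and 6 fell, with a median log2 change of 0.02. Its sign turned with quantile normalization, with equal totals and without WT replicate 1 or shRNA1 replicate 2. Egr1 is given above. Ier3, an early gene that also answers to NF-kB, stood at 222 and 219.6 FPKM in WT and 588 and 543 FPKM with shRNA1. Fosl1, an AP-1 subunit gene, stood at 14.8 and 14.7 FPKM in WT and 24.1 and 25.6 FPKM with shRNA1. Dusp5, a nuclear ERK phosphatase gene, stood at 2.72 and 2.36 FPKM in WT and 3.89 and 4.33 FPKM with shRNA1. These genes rose without overlap between the groups. The feedback inhibitor gene Spry1 fell from 69.5 and 75.4 to 51.3 and 51.3 FPKM (log2 change -0.49, limma adjusted p = 3.32e-04). The ETS factor genes Etv4 and Etv5 were called lower, with log2 changes of -0.24 and -0.22 (limma adjusted p = 0.00871 and 0.00796). Both calls ended without WT replicate 2 or shRNA1 replicate 2 (up to 0.0575 and 0.0509). Spry4, at -0.28 (limma adjusted p = 0.0338), was lost without shRNA1 replicate 1, without either WT library and in 2 other settings (up to 0.171). Without any 1 of the 4 libraries, 2 or 3 of the 20 genes were called lower. Dusp6, the cytoplasmic ERK phosphatase and a standard readout of the pathway, stood at 99.9 and 99.2 FPKM in WT and 103 and 99.1 FPKM with shRNA1. Ccnd1, which encodes cyclin D1, stood at 452 and 455 FPKM in WT and 468 and 465 FPKM with shRNA1. Myc stood at 65.5 and 65.4 FPKM in WT and 62.3 and 61.7 FPKM with shRNA1. None of these 3 genes was called (limma adjusted p of 0.768, 0.474 and 0.169).

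Of 21 immediate early genes 15 rose and 1 fell (median 0.36), or 2 fell with equal totals and without shRNA1 replicate 2. These genes answer within minutes to growth factors, stress and handling of the cells, and 4 of them, Egr1, Ier3, Fosl1 and Myc, are also on the list of ERK output. Besides Egr1 and Fos, Zfp36, whose protein degrades cytokine mRNA, rose from 10.97 and 10.3 to 39.7 and 34.7 FPKM. Ier2 rose from 21.6 and 23.5 to 65.2 and 53.6 FPKM, and Junb, an AP-1 subunit gene, from 75.6 and 85.3 to 172 and 158 FPKM. Atf3, which ATF4 also induces, was the 1 that fell, from 14.9 and 15.7 to 8.31 and 7.50 FPKM.

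**Figure D5:**
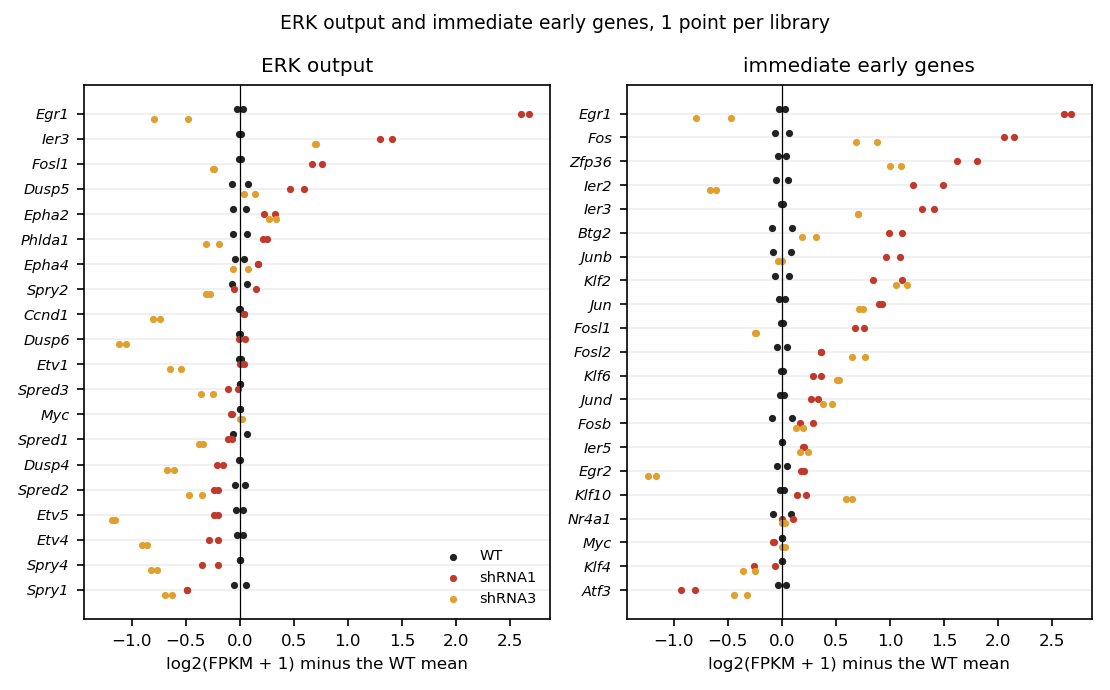
Values of log2(FPKM + 1) minus the WT mean for the tested ERK output genes (left) and immediate early genes (right), 1 point per library, black for WT, red for shRNA1 and orange for shRNA3. The red points of Egr1 lie furthest right, with a mean of 2.64, and those of Ccnd1 and Dusp6 lie near 0 while the orange ones lie below 0.

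Inflammatory genes were mostly higher. Of 20 tested STAT3 targets 17 rose and 2 fell (median 0.40). Besides Steap4, the acute phase gene Saa2 rose from 15.7 and 15.9 to 35.2 and 36.6 FPKM, and Saa1 1.93-fold. Saa1 and Saa2 are near-identical copies, so their reads may have been split. Socs3, which feeds back on the IL-6 receptor, rose from 39.6 and 41.4 to 70.8 and 67.8 FPKM. Those that fell were Il6st and Socs2, and the call of Socs2 (log2 change -0.51, limma adjusted p = 0.0129) ended without WT replicate 1 or shRNA1 replicate 2 and with no filter (up to 0.0747). Of 22 NF-kB subunits, inhibitors and targets 11 rose and 2 fell (median 0.24). Without WT replicate 2 or either shRNA1 library 1 fell, and the median was 0.16 without shRNA1 replicate 2. Ptgs2, the inducible cyclooxygenase gene, stood at 63.6 and 59.3 FPKM in WT and 155 and 161 FPKM with shRNA1. Tnfaip3, an inhibitor of NF-kB signalling, stood at 23.9 and 23.5 FPKM in WT and 43.1 and 41.6 FPKM with shRNA1. Both rose, as did Nos2 and Ptx3, which are on this list, while the subunit gene Nfkb1 fell from 46.3 and 46.1 to 39.5 and 39.5 FPKM. Of 18 secreted factors 11 rose and 2 fell (median 0.24), with 7 rises without WT replicate 2 or without shRNA1 replicate 2. Csf3, which encodes the granulocyte factor G-CSF, stood at 117 and 115 FPKM in WT and 189 and 187 FPKM with shRNA1. Lif, a cytokine of the IL-6 family, stood at 8.43 and 7.79 FPKM in WT and 14.7 and 14.9 FPKM with shRNA1. Cxcl1, a neutrophil chemokine gene, stood at 539.6 and 535 FPKM in WT and 750.5 and 745 FPKM with shRNA1. Each of these 3 rose, with both shRNA1 libraries above both of WT. Ccl5, a chemokine gene that interferon induces, fell from 137 and 163 to 90.1 and 94.6, and Cxcl10 from 16.8 and 17.8 to 11.7 and 12.9 FPKM. Of the 14 leukocyte markers, which summed to 98.2 and 115.0 FPKM in WT and 106.5 and 102.3 with shRNA1, Cd68, a lysosomal protein of macrophages that other cells also make, rose 2.62-fold, and S100a8 stood at 71.8 and 85.4 FPKM in WT and 61.4 and 62.1 FPKM with shRNA1. S100a8 was called lower (limma adjusted p = 0.0111), but not without shRNA1 replicate 1 (adjusted p = 0.0555). As given above, the pan-leukocyte gene Ptprc was among the markers at 0.

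Interferon-stimulated genes were lower. Type I interferon acts through factors such as STAT2 and IRF9 on a large set of antiviral genes, and IRF7 extends the response. Of 38 tested 25 fell and 3 rose, with a median log2 change of -0.36. Irf7 stood at 51.4 and 52.96 FPKM in WT and 19.6 and 18.1 FPKM with shRNA1, 2.77-fold lower (log2 change -1.42 ± 0.06, limma adjusted p = 2.58e-06). Bst2, which tethers budding virus to the cell surface, stood at 344 and 364 FPKM in WT and 140.0 and 138 FPKM with shRNA1. Ifi44, another gene of this response, stood at 9.98 and 10.1 FPKM in WT and 3.19 and 4.36 FPKM with shRNA1. The groups were wide apart for these genes. Of the upstream factors, Irf9 fell from 33.9 and 33.4 to 20.9 and 22.3 FPKM. Stat2, at 20.2 and 20.4 FPKM in WT and 23.3 and 22.01 FPKM with shRNA1, was not called (limma adjusted p = 0.0640), except as higher with median-of-ratios scaling or quantile normalization (down to 0.0430). Isg20, an exonuclease gene, rose from 32.2 and 37.6 to 69.01 and 67.5 FPKM. Ifitm2 and Irf1 were also called higher (limma adjusted p = 0.0033 and 0.0147), Ifitm2 not with quantile normalization (0.0652) and Irf1 not without WT replicate 1 or shRNA1 replicate 1 (0.0826). Of 22 genes of antigen presentation by MHC class I 6 rose and 3 fell, or 5 fell with equal totals or quantile normalization. The median of 0.06 was -0.0064 without WT replicate 1 and -0.0091 without shRNA1 replicate 1, 0.13 and 0.12 without the other library of each group, and 0.0081 and 0.027 with equal totals and quantile normalization. Psmb9, an immunoproteasome subunit gene, rose from 6.08 and 7.61 to 12.8 and 13.1 FPKM. Cd274, which encodes PD-L1, rose from 4.03 and 3.78 to 6.64 and 6.90 FPKM. H2-T23, a nonclassical class I gene, fell from 129 and 135 to 103 and 92.8 FPKM. Members of the H2 family resemble each other closely, so reads may have been split between them.

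Matrix, adhesion and cytoskeleton genes rose in several lists. Of 21 tested matrix proteases and inhibitors 15 rose and 0 fell (median 0.27), with 1 fall with quantile normalization. Mmp9, a gelatinase, stood at 68.5 and 71.9 FPKM in WT and 211 and 204 FPKM with shRNA1. Mmp10, a stromelysin, stood at 0.923 and 1.10 FPKM in WT and 3.13 and 3.98 FPKM with shRNA1. Hpse, the heparanase gene, stood at 2.87 and 2.71 FPKM in WT and 6.63 and 6.62 FPKM with shRNA1. All 3 were higher in both shRNA1 libraries than in both of WT. Of 16 mesenchymal genes 12 rose and 0 fell (median 0.33), with 2 falls with equal totals and 1 with quantile normalization. Dcn, the proteoglycan decorin, stood at 10.96 and 10.4 FPKM in WT and 34.8 and 37.05 FPKM with shRNA1. Snai1, a repressor of epithelial genes, stood at 29.7 and 31.8 FPKM in WT and 48.8 and 48.99 FPKM with shRNA1, and the matrix gene Tgfbi rose 3.04-fold. Dcn is also one of the 10 fibroblast markers. Of the others in that list, Pdgfra fell from 49.96 and 49.7 to 41.9 and 41.8 FPKM, and the part of other cells in these changes was not tested. Of 16 epithelial genes 9 rose and 1 fell (median 0.17), with 5 rises without shRNA1 replicate 1, no fall without either WT library, either shRNA3 library or shRNA1 replicate 2, and a median of 0.28 without the last. Besides Krt19, Pkp2, a desmosome gene, rose from 3.42 and 3.34 to 10.5 and 10.5 FPKM. Epcam, an adhesion gene, rose from 2.18 and 2.04 to 5.14 and 3.77 FPKM. Krt18, at 495 and 515 FPKM in WT and 587 and 551 FPKM with shRNA1, was called higher (log2 change 0.17, limma adjusted p = 0.0188). The call ended without WT replicate 1 or shRNA1 replicate 1 and when limma's prior variance had no trend, and with quantile normalization the change was -0.02 (limma adjusted p = 0.706).

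Of 24 tested integrin and focal adhesion genes 12 rose and 2 fell (median 0.16), with 1 fall without WT replicate 1 or either shRNA1 library and a median of 0.10 with equal totals. Itga7, a laminin receptor gene, stood at 3.17 and 4.05 FPKM in WT and 10.2 and 10.5 FPKM with shRNA1. Vcl, which encodes vinculin, stood at 40.7 and 38.2 FPKM in WT and 67.9 and 69.6 FPKM with shRNA1. Both rose without overlap, while Itgb4, the hemidesmosome integrin gene, fell from 10.7 and 11.5 to 7.57 and 7.68 FPKM. Of 17 actin, myosin and SRF target genes 13 rose and 0 fell (median 0.30), among them the cytoplasmic actin genes Actb, 1.31-fold, and Actg1, 1.33-fold. Of 19 YAP and TEAD targets 11 rose and 1 fell (median 0.20), with 7 rises without shRNA1 replicate 2. With equal totals 4 were called lower, and 2 with quantile normalization and with no trend in the prior variance. Cyr61, a matrix protein gene, stood at 47.6 and 48.5 FPKM in WT and 167 and 162 FPKM with shRNA1, 3.42-fold higher, and its relative Ctgf rose 1.39-fold. Of 25 genes of the TGF-beta and BMP pathway 7 rose and 4 fell (median 0.07), with 3 or 4 rises and 1 or 2 falls without WT replicate 2 or either shRNA1 library, and 4 rises and a median of 0.011 with equal totals. Id2, a target of BMP signals, rose most, from 8.996 and 9.45 to 15.5 and 15.8 FPKM. Inhba, a subunit gene of activin, rose from 8.63 and 9.99 to 14.8 and 14.9 FPKM.

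Genes of the cell cycle moved by small amounts. Of 26 mitosis genes 18 rose and 0 fell (median 0.19), with 11 rises without either WT library and 10 with equal totals. Cdk1, the kinase that drives mitosis, rose from 73.2 and 74.2 to 92.8 and 96.8 FPKM and Bub1 from 28.8 and 27.4 to 35.3 and 38.2. Of 30 replication genes 8 rose and 2 fell (median 0.02). With equal totals 3 rose and 4 fell, with a median of -0.040. Without WT replicate 2 or either shRNA1 library 4 rose and 1 fell, and the median lay between -0.0017 and 0.047 over the 4 libraries left out in turn. Larger changes were seen for genes of arrest and p53. Trp53 itself fell from 50.9 and 54.3 to 23.9 and 22.7, 2.26-fold lower (log2 change -1.14 ± 0.05, limma adjusted p = 5.16e-06). Cdkn1a, which encodes the inhibitor p21 and is a classical p53 target, stood at 14.5 and 16.04 FPKM in WT and 33.2 and 32.0000 FPKM with shRNA1. Gadd45b, a stress gene, stood at 4.52 and 5.46 FPKM in WT and 15.9 and 17.3 FPKM with shRNA1. Both rose without overlap of the groups. Over the 17 genes of the list 6 rose and 3 fell, and the median of 0.04 was -0.020 with equal totals, 0.014 without shRNA1 replicate 1 and 0.092 without shRNA1 replicate 2.

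NRF2 targets and iron genes fell more often than they rose, 10 against 3 of 23 tested (median -0.07), with 0 or 1 rises without any 1 of the 4 libraries, with equal totals or with quantile normalization, and 5 with median-of-ratios scaling. The median was -0.12 with equal totals and -0.042 without WT replicate 2. Gclc, the first enzyme of glutathione synthesis, stood at 18.4 and 18.6 FPKM in WT and 10.01 and 10.1 FPKM with shRNA1. Srxn1, which restores peroxiredoxins, stood at 53.2 and 55.6 FPKM in WT and 32.3 and 29.6 FPKM with shRNA1. Both fell without overlap, as did Slc7a11, the cystine transporter gene that ATF4 also induces, 1.75-fold. Of 28 splicing factor genes 13 fell and 2 rose (median -0.11), with 8 falls without WT replicate 1 or shRNA1 replicate 1, and 1 rise with equal totals and without WT replicate 2 or shRNA1 replicate 2. The median was -0.17 with equal totals. Srsf5 rose 1.37-fold and Tra2b fell 1.31-fold. Of 36 cytoplasmic ribosomal protein genes 3 rose and 1 fell, with a median of 0.04. With quantile normalization this median was -0.12, and 17 were called lower. With equal totals it was -0.015, and 4 were called lower. None was called lower without any 1 of the 4 libraries. Of 27 lysosome and autophagy genes 10 rose and 6 fell (median 0.10). The median was 0.066 without WT replicate 1, 0.045 without shRNA1 replicate 2, 0.043 with equal totals and 0.053 with quantile normalization. Sqstm1, the autophagy receptor p62 and an NRF2 target, fell from 691 and 710.3 to 460.4 and 437 FPKM. Atp6v0d1, a subunit gene of the lysosomal proton pump, fell 1.72-fold. Of 17 clock genes 7 rose and 1 fell (median 0.07), led by Bhlhe40, which hypoxia also induces, 2.16-fold higher. The median was 0.16 without WT replicate 2, 0.14 and 0.19 without shRNA1 replicate 1 and 2, 0.13 over genes that averaged at least 5 FPKM and 0.030 with equal totals, and 2 fell with equal totals and without shRNA1 replicate 2. Among genes read as signs of RNA handling, Hist1h1c and Hist1h2bc, whose histone mRNAs mostly lack the tails that mRNA kits select, rose 2.30-fold and 1.34-fold, and the nuclear RNA Malat1 1.39-fold. Those 3 were called of 7 tested in this list, whose summed level was 295 and 283 FPKM in WT and 332 and 333 FPKM with shRNA1. These rises went with the group, and their part in the other changes was not tested.

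The second hairpin gave a direct contrast. Between shRNA1 and shRNA3, 4713 genes, or 42.5% of those tested, differed. Since both hairpins share the WT libraries, their changes against WT are only set side by side. Trib3, at 24.5 and 26.2 FPKM with shRNA1 and 60.02 and 62.4 with shRNA3, was lower with shRNA1 (log2 difference -1.24 ± 0.05, limma adjusted p = 8.43e-06). Of the genes called higher than WT, those that stood furthest above shRNA3 were Egr1, Mt2, Csf3 and Ier2. Egr1 stood at 16.3 and 15.5 FPKM with shRNA1, 0.567 and 0.954 with shRNA3 and 1.77 and 1.66 in WT, so WT lay between the hairpins (log2 difference 3.27 ± 0.12, limma adjusted p = 4.67e-06). The same order was seen for Csf3, at 189 and 187 FPKM with shRNA1, 117 and 115 in WT and 38.4 and 37.9 with shRNA3 (log2 difference 2.27, limma adjusted p = 4.88e-08). Ier2 also followed it, at 65.2 and 53.6 FPKM with shRNA1, 21.6 and 23.5 in WT and 13.8 and 14.4 with shRNA3 (log2 difference 1.99). Mt2, a metallothionein gene, stood at 176 and 182 with shRNA1, 123 and 124 in WT and 24.7 and 24.4 with shRNA3. Of the genes called lower than WT, those furthest below shRNA3 were Ptgds, Ddit3, Camk2n2 and Ifi27l2a. Ddit3 stood at 34.7 and 31.4 FPKM with shRNA1 and 104 and 93.3 with shRNA3, beside 102 and 105 in WT (log2 difference -1.55, limma adjusted p = 8.43e-06). For Camk2n2, an inhibitor of a calcium-dependent kinase, shRNA3 and WT overlapped, at 26.2 and 24.5 and 24.6 and 26.1 FPKM, above the 9.38 and 9.15 FPKM of shRNA1. Ptgds, a prostaglandin synthase, stood at 1.85 and 2.74 FPKM with shRNA1, 13.2 and 9.12 with shRNA3 and 4.85 and 6.999 in WT.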

How the data were processed

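Polyadenylated RNA of 6 libraries was prepared with a stranded mRNA kit, per the labels' protocols. The deposited values are 1 number per gene symbol and library. They are taken as FPKM that the authors made with Cufflinks 2.2.1, since the submitters' processing notes name it beside TopHat2 2.0.13, Bowtie2 2.2.3, SAMtools 0.1.19 and build mm10. The unit is not written in the files, the absolute depth is unknown, and the sources used here give no annotation, strand setting or options. FPKM hold no counts, so limma 3.58.1 (R 4.3.3) was fitted with a trend to log2(FPKM + 1) of all 3 groups, for symbols that averaged at least 1 FPKM, without a replicate block, and p-values were adjusted by Benjamini-Hochberg over all 11079 symbols at a threshold of 0.05. The same fit was also run on simulated data with independent libraries, which cannot show if the libraries here are separate cultures. Fragment numbers of AU021063 and Il6 were read from the steps between low FPKM values, as the smallest whole numbers that fit. Their intervals take these numbers as counted and cover counting error only.

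Of the 24346 symbols, 23268 (95.6%) matched 1 gene of GENCODE M21 (GRCm38), which gave identifiers and positions. Promoters were the 250 bases before the start of a gene in RefSeq (GRCm38.p6). The comparison, the gene lists and the genes named were chosen with earlier results of these data known. The rule named the members of the route in the title, the 15 largest rises and falls by log2 change and the 8 largest by FPKM among called genes whose groups did not overlap, up to 4 called members of each list, up to 4 rises and 4 falls that differed most from shRNA3, and the genes near AU021063. It left out miRNA, snoRNA and unnamed models. A few genes of the rule are not reported here. Other genes, such as Atf4, Nupr1, Bnip3, Car9, Spry1, Dusp6 and those named as exceptions, were chosen after their values were seen. Alternatives changed the pseudocount, the filter, the scaling, the libraries in the fit, the trend and the replicate block.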

Additional observations from a re-analysis of the deposited data

How the results depend on the processing

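The counts of genes that fell, at 2035, ranged from 1248 to 1853 when single libraries were left out, the lowest without shRNA1 replicate 2. Leaving out shRNA3 replicates was added after seeing the data, and gave 1829 and 1822 rises. With a pseudocount of 0.1, 172 genes were at least 2-fold higher in place of 103. Other counts over all genes and the level of AU021063 stayed within 1.5 times under the settings run. Deviations of same-numbered libraries correlated at 0.0103 between WT and shRNA1, -0.0719 between WT and shRNA3 and 0.199 between the hairpins. With a single difference per group, these values cannot decide if the replicate numbers pair the samples. The fit with the replicate block called 1749 genes higher and 1774 lower.

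Of 160 genes named that were called against WT, 16 lost the call in at least 1 setting, and of 17 not called 4 gained it. All 9 differences from shRNA3 kept theirs. With quantile normalization the log2 changes of Krt18, Ccnd1 and Dusp6 turned to -0.020, -0.097 and -0.019. With equal totals Ccnd1, Dusp6 and Nr4a1 were at -0.018, -0.038 and -0.0030. Over single libraries left out, Akt1 ranged from -0.147 to 0.0076, Arid5a from -0.175 to 0.019, Dusp6 from -0.0058 to 0.044 and Nr4a1 from -0.030 to 0.132. Causes were not tested. Depth limits AU021063 and Il6, which rest on few fragments.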
